A study of Mus musculus with 5 samples.

Results

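The respiratory chain of the inner mitochondrial membrane is built from protein complexes whose subunits are encoded in the nucleus and in the mitochondrial genome. Complex I takes electrons from NADH and complex II from succinate, complex III passes them from ubiquinol to cytochrome c, complex IV gives them to oxygen, and complex V, the ATP synthase, uses the proton gradient that complexes I, III and IV build up. Complex II is encoded in the nucleus alone, while the other complexes each hold subunits of mitochondrial origin, so that in any cell the messages of both genomes have to be matched. The nuclear genes of these complexes were followed in mouse mammary epithelial cells with a guide RNA against Mef2d, a transcription factor of the MEF2 family. The genes were chosen by symbol alone, from the protein-coding genes of GENCODE M21 whose symbols begin with Ndufa, Ndufb, Ndufc, Ndufs or Ndufv and a number, the genes Sdha to Sdhd, those whose symbols begin with Uqcr, Cyc1, the Cox genes numbered 4 to 8 and a letter, and those whose symbols begin with Atp5. Of 86 genes so found, 78 were among the 12934 genes listed with counts, and 77 were among the 12483 genes that passed edgeR's expression filter and were tested. The 77 tested genes comprised 36 for complex I, 4 for complex II, 9 for complex III, 11 for complex IV and 17 for complex V.

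The cells were EpH4, an established line of mouse mammary epithelium of BALB/c origin. All libraries came from cells that express Cas9 from a lentiviral vector and were selected with antibiotics, and they carried either a control sgRNA (sgControl, 3 libraries) or an sgRNA against Mef2d (sgMef2d, 2 libraries). Whether the same sgRNA was used in both sgMef2d libraries is not stated in the labels, and, beyond a general remark in the methods that experiments were repeated independently, the sources do not tie these libraries to separate cultures, so the p-values measure the spread between these libraries, which may be technical. Poly(A) RNA was sequenced in strand-marked libraries, and levels below are in CPM, the deposited counts scaled to a fixed library total with a TMM factor.

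The library totals lay between 13601145 and 20498563 counts. Mef2d itself had 64.3, 76.9 and 71.5 CPM in the 3 sgControl libraries and 64.2 and 65.8 CPM in the 2 sgMef2d libraries, so its message overlapped between the groups (quasi-likelihood test of edgeR with adjustment after Benjamini and Hochberg, adjusted p = 0.400). The overlap came from sgControl replicate 1, and without that library the log2 fold change of Mef2d went from -0.12 to -0.19 (edgeR's adjusted p = 0.0055). The paper reports from an immunoblot that MEF2D protein was absent in its sgMEF2D cells, and the level of the message does not measure the protein. Of the defining epithelial genes, 6 of 6 were listed, and Krt8 was at 972 ± 35.3 CPM (SD, n = 3) in sgControl and 972 ± 30.6 CPM (SD, n = 2) in sgMef2d, while Krt18 fell by 0.26 and Cldn4 rose by 0.26 on the log2 scale (edgeR's adjusted p = 0.0207 and 0.0407, lost in 3 and 5 of 13 alternatives). Epcam and Cdh1 had log2 fold changes of 0.13 each, with both sgMef2d libraries above all sgControl libraries, and Krt7 had -0.15, with both below. Without sgControl replicate 1 Epcam passed as higher and Krt7 as lower. The summed level of the 6 epithelial genes was 3843 to 4037 CPM in sgControl and 3666 to 3811 CPM in sgMef2d. Of the marker lists for other cells, 0 of 3 endothelial genes, 1 of 3 immune genes, 1 of 5 skeletal muscle genes and 3 of 5 fibroblast genes were listed. Dcn, a matrix proteoglycan of fibroblasts, rose from 1.38 ± 0.49 to 3.39 ± 0.12 CPM (a call lost in 3 of 13 alternatives), Pdgfra and Pdgfrb, the other listed genes of that list, had log2 fold changes of -0.25 and -0.05 and passed as lower without sgControl replicate 1, and the summed level of the fibroblast list ranged from 103 to 128 CPM in sgControl and from 112 to 114 CPM in sgMef2d. The listed muscle gene Acta1 was at 1.80 ± 0.50 and 0.91 ± 0.042 CPM (edgeR's adjusted p = 0.137, and 0.0149 without sgControl replicate 1), and the listed immune gene Cd68 at 0.76 ± 0.087 and 1.08 ± 0.28 CPM (edgeR's adjusted p = 0.488). The part of such markers in the results below was not tested.

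Respiratory chain genes are known to be driven by the factors NRF1, GABP (also called NRF-2), ERR, YY1 and Sp1, which bind close to the start of many of them. To show the regulatory sequence of the genes with the highest fold changes in complexes I and V, the stretch from 150 bases before to 30 bases after the RefSeq start (GRCm38.p6, 5′ to 3′ on the strand of the gene) is printed with the letters of any searched motif in capitals. Ndufa8 (ENSMUSG00000026895, chromosome 2, 36036326 to 36049406, minus strand) has its stretch at chr2:36049309-36049488, Ndufb7 (ENSMUSG00000033938, plus strand) at chr8:83566608-83566787, Atp5h (ENSMUSG00000034566, chromosome 11, 115415689 to 115419962, minus strand) at chr11:115419890-115420069 and Atp5k (ENSMUSG00000050856, minus strand) at chr5:108434370-108434549.
Ndufa8: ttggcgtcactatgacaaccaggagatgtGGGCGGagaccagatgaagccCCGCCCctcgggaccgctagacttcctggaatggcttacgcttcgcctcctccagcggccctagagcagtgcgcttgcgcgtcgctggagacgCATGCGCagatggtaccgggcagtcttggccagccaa
Ndufb7: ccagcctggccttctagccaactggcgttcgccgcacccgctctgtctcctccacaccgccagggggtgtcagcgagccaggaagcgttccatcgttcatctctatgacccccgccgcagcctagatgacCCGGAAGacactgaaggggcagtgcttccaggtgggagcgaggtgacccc
Atp5h: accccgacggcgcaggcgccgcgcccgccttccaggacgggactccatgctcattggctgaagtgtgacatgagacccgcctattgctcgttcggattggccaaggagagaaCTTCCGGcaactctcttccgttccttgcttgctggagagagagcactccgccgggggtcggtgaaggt
Atp5k: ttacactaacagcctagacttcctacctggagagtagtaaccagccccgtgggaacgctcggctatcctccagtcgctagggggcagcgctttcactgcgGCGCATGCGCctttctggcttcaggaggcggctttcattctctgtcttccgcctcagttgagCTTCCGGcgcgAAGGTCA

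The capitals mark GCGCATG, a part of the palindrome bound by NRF1, CCGGAAG for GABP, AAGGTCA for ERR and GGGCGG for Sp1, each read on either strand, and in Atp5k the NRF1 letters of both strands overlap. AAGATGG for YY1 and the MEF2 motif were searched as well. Ndufa8 held letters of NRF1 and Sp1, Ndufb7 and Atp5h of GABP, and Atp5k of NRF1, GABP and ERR. Over the window from 250 bases before to 50 bases after the start, 62 of the 77 tested genes had a RefSeq promoter, beside 9359 of all tested genes. The RefSeq start was farthest from the gene start of GENCODE M21 in Atp5d, Cox7a2l and Atp5g2, at 3643, 2997 and 1305 bases. Such windows were counted with the others. The ERR letters were in 8 of the 62 promoters (12.9%) and in 2.81% of all promoters, and those of NRF1 in 13 (20.97%) and in 7.43%. YY1 letters were in 9 (14.5%, beside 7.53%), GABP letters in 15 (24.2%, beside 19.7%), and Sp1 letters in 24 (38.7%, beside 66.6%). The MEF2 motif matched 0 of the 62 promoters and 140 of 9359 of all genes. Thus the ERR and NRF1 letters had the widest gap above all promoters and Sp1 the widest gap below. By complex, the ERR letters were in 4 of 13 promoters of complex V, 3 of 32 of complex I, 1 of 3 of complex II and none of those of complexes III and IV. A match of letters is a description of these windows and not a site, and no match says only that these letters are not in this window.

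Between the groups, 2 of the 77 genes passed an adjusted p of 0.05, both higher in sgMef2d (2.60%), against 7.95% of all tested genes, of which 3.67% were higher and 4.28% lower. They were Ndufa8 of complex I and Atp5h of complex V, with log2 fold changes of 0.24 and 0.27. None was lower by edgeR's quasi-likelihood test, and without adjustment 0 fell below a p of 0.05 in that direction with edgeR, DESeq2 or limma-voom. At an unadjusted p below 0.05, 9 genes were higher (11.7%), where 11.2% of all tested genes were higher and 23.2% passed in either direction. At an adjusted p below 0.10 the count was 5, beside 12.7% of all genes.

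The fold changes were small and mostly of the same sign. Of the 77 log2 fold changes 66 were above 0 (85.7%), beside 50.7% of all tested genes, with a median of 0.07 beside 0.0031 for all genes. With 2 other scalings of the libraries, 65 and 66 were above 0. The number was 70 without sgControl replicate 1, 57 without sgControl replicate 2 and 49 without sgControl replicate 3. Removal of the trend of each library with gene length and GC content left 42 (54.5%, beside 51.9% of all genes). Both sgMef2d libraries lay above all 3 sgControl libraries in 14 of the 77 genes, while 20.6% of all genes did so, and both lay below in 1 gene, while 20.5% of all genes did so. In bulk RNA, a change in the level per cell and a change in the share of cells with that level cannot be told apart.

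**Figure D1:**
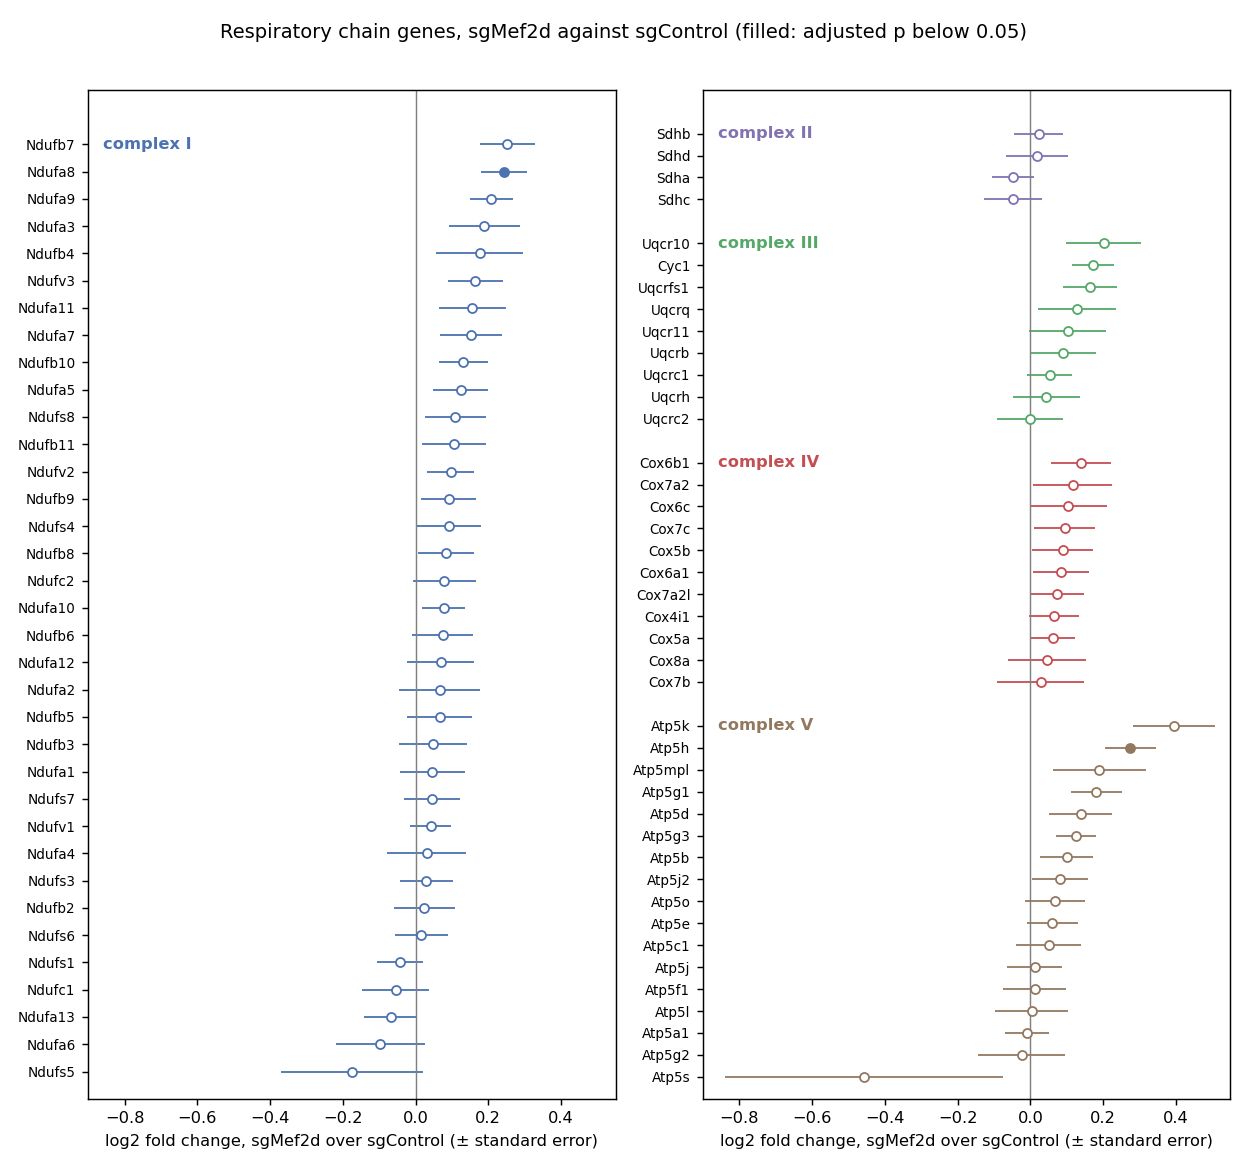
Log2 fold change of the tested genes (1 gene of complex I is not drawn), sgMef2d over sgControl, with the standard error (bars), by complex and in order of the fold change within each; filled points passed an adjusted p of 0.05. Most points sit between 0 and 0.20, Ndufa8 and Atp5h are filled, and 66 points are above 0 (of 77 genes tested), a count that fell to 42 once the trend with gene length and GC content was removed.

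By complex, the median log2 fold change was 0.08 for complex I, -0.01 for complex II, 0.10 for complex III, 0.08 for complex IV and 0.07 for complex V. Complex II stood below the other complexes, with 2 of 4 genes above 0, where complex III had 9 of 9, complex IV 11 of 11, complex I 30 of 36 and complex V 14 of 17. With the trend of length and GC content removed the medians were -0.0023, -0.06, 0.02, 0.0037 and 0.05 for complexes I to V, so complex I then had the opposite sign and complex II still had the lowest value. No test between complexes was made.

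Complex I carries out the first step of the chain with a core that holds the NADH site, the iron-sulfur clusters and the ubiquinone site, surrounded by accessory subunits. Of the 7 core genes, 5 were above 0, with a median log2 fold change of 0.04, but 0 passed the test. The highest was Ndufs8, which binds iron-sulfur clusters, at 58.6, 52.3 and 50.4 CPM in sgControl and 54.9 and 61.5 CPM in sgMef2d (log2 fold change 0.11, standard error 0.083). The libraries of the groups overlapped in this gene. Ndufs1 and Ndufv1, which carry the path of electrons from NADH, had log2 fold changes of -0.04 and 0.04.

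Of the 28 accessory genes, 24 were above 0, with a median log2 fold change of 0.08. Ndufa8, an accessory subunit on the intermembrane side, had 65.2, 65.5 and 68.1 CPM in sgControl and 76.4 and 80.5 CPM in sgMef2d. The groups did not overlap, and the means of 66.3 ± 1.57 CPM (SD, n = 3) and 78.4 ± 2.89 CPM (SD, n = 2) gave a log2 fold change of 0.24 with a standard error of 0.063 (edgeR's quasi-likelihood test, adjusted p = 0.0381). With the trend of length and GC content removed the log2 fold change was 0.11. The call was lost with DESeq2 (adjusted p = 0.0903), with the trend of length and GC content removed (adjusted p = 0.351) and without any of the libraries sgControl replicate 2, sgControl replicate 3, sgMef2d replicate 1 or sgMef2d replicate 2, with edgeR's adjusted p between 0.0584 and 0.411, the lone sgMef2d library then being assumed to vary like the others.

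Ndufb7, another accessory subunit of the intermembrane side, had the highest log2 fold change of complex I with all libraries, with 70.6, 60.8 and 62.7 CPM in sgControl and 77.1 and 77.5 CPM in sgMef2d (0.25, standard error 0.075, edgeR's adjusted p = 0.0636). Ndufa8 was above it without sgControl replicate 2 (0.24 beside 0.21) and without sgControl replicate 3 (0.26 beside 0.23). Ndufa9, an accessory subunit that binds a nucleotide cofactor, had 99.0, 95.9 and 101 CPM in sgControl and 114 and 114 CPM in sgMef2d (0.21, standard error 0.058, edgeR's adjusted p = 0.0516, and 0.0479 with upper-quartile factors). In Ndufb7 and Ndufa9 the 2 sgMef2d libraries lay above the 3 sgControl libraries, and these were the genes of complex I just outside the threshold. The same held, with smaller changes, for Ndufv1, Ndufv2, Ndufa10, Ndufb10 and Ndufv3, whose log2 fold changes ran from 0.04 to 0.16.

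Ndufs5 had the lowest log2 fold change of complex I, -0.17 with a standard error of 0.19, at 4.73, 5.74 and 3.88 CPM in sgControl and 4.18 and 4.31 CPM in sgMef2d. It also had the lowest level per length of the complex, and 21.7% of the 50-base words of its transcripts are shared with 1 other gene, a pseudogene, so that its counts may be split. Ndufa4 carries a complex I symbol but is known as a subunit of complex IV. It was at 364, 285 and 263 CPM in sgControl and 311 and 311 CPM in sgMef2d, with a log2 fold change of 0.03 (standard error 0.11). The sgMef2d libraries were alike, and sgControl replicate 1 lay above them while replicates 2 and 3 lay below.

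Complex II, succinate dehydrogenase, links the citric acid cycle to the chain. Sdha, the flavoprotein that oxidises succinate, had 160.0, 171 and 166 CPM in sgControl and 160.2 and 160.3 CPM in sgMef2d (log2 fold change -0.05, standard error 0.058). Sdhb, the iron-sulfur subunit, had a log2 fold change of 0.02, and the membrane anchors Sdhc and Sdhd had -0.05 and 0.02. The libraries of the groups overlapped in all 4 genes, and 0 passed by edgeR, DESeq2 or limma-voom, adjusted or not. Complex II was also the only complex with no gene past the threshold without sgControl replicate 1, where 1 of the 4 had an unadjusted p below 0.05. In that comparison 14.6% of all genes passed as higher and 14.8% as lower, and with 4 genes a count of 0 is not set apart from these shares.

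In complex III, the subunits that carry electrons, Cyc1 (cytochrome c1) and Uqcrfs1 (the Rieske iron-sulfur protein), had log2 fold changes of 0.17 and 0.16. Cyc1 was at 170, 164 and 164 CPM in sgControl and 181 and 193 CPM in sgMef2d, and Uqcrfs1 at 159, 141 and 135 CPM in sgControl and 160 and 166 CPM in sgMef2d. Both had the sgMef2d libraries above all sgControl libraries and an unadjusted p below 0.05, but their adjusted p values by edgeR were 0.102 and 0.209. The core proteins Uqcrc1 and Uqcrc2 had 0.05 and 5.27e-06, the latter at 153, 130 and 120 CPM in sgControl and 133 and 136 CPM in sgMef2d.

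The 5 small subunits of complex III had a median log2 fold change of 0.10. Uqcr10 had the highest of the complex, 0.20 with a standard error of 0.10, at 72.7, 59.8 and 54.4 CPM in sgControl and 70.8 and 73.2 CPM in sgMef2d, with sgControl replicate 1 between the sgMef2d libraries. It went to 0.11 without sgControl replicate 3 and to 0.05 with the trend of length and GC content removed, where Cyc1 was the highest (0.09). Uqcrh, the hinge protein that helps cytochrome c to dock, had 0.04 with a standard error of 0.092. Of the 9 genes of complex III 0 passed by edgeR, DESeq2 or limma-voom, while 2, 1 and 2 had an unadjusted p below 0.05 with these tools.

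The complex IV genes are present in general forms and in forms of heart, skeletal muscle, lung or testis. The 11 tested genes comprised 10 general forms and Cox7a2l, a factor that joins complexes III and IV. Of the tissue forms, Cox4i2, Cox6a2, Cox6b2, Cox7a1, Cox8b and Cox8c were not listed and are not analysed here, as was Ndufa4l2, and Cox7b2 was listed with 8, 1 and 2 counts in sgControl and 7 and 24 counts in sgMef2d and did not pass the filter. Paired forms such as Cox4i1 and Cox4i2 were thus represented by the general form alone.

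The complex IV genes had log2 fold changes from 0.03 to 0.14, all above 0, and in none did the sgMef2d libraries lie above all sgControl libraries. Cox6b1, a subunit that faces the cytochrome c side, had the highest with all libraries, 0.14 with a standard error of 0.082, at 142, 131 and 114 CPM in sgControl and 144 and 141 CPM in sgMef2d. It went to 0.06 without sgControl replicate 3 and to 0.00091 with the trend removed, and the highest was Cox7a2 (0.26) without sgControl replicate 1 and Cox6c (0.10) with the trend removed. Cox7b had the lowest, 0.03 with a standard error of 0.12, at 150, 113 and 105 CPM in sgControl and 125 and 126 CPM in sgMef2d. In Cox7b, Cox8a and Cox4i1 the level of sgControl replicate 1 was above both sgMef2d libraries, which were in turn above sgControl replicates 2 and 3. Cox8a had 256, 195 and 190 CPM in sgControl and 223 and 220 CPM in sgMef2d (0.05), and Cox4i1, the subunit through which the complex is thought to be regulated by ATP, had 415, 363 and 365 CPM in sgControl and 392 and 406 CPM in sgMef2d (0.07). Cox6a1, Cox7a2 and Cox7a2l had log2 fold changes of 0.08, 0.12 and 0.07. By edgeR, DESeq2 or limma-voom 0 of the 11 genes passed, adjusted or not.

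Complex V turns the flow of protons through a ring of c subunits into ATP in its F1 head, and a peripheral stalk holds head and ring together. Atp5h, subunit d of the peripheral stalk, had 150, 134 and 131 CPM in sgControl and 172 and 163 CPM in sgMef2d, with no overlap of the groups. The means of 138 ± 10.2 CPM (SD, n = 3) and 168 ± 6.80 CPM (SD, n = 2) gave a log2 fold change of 0.27 with a standard error of 0.070 (edgeR's quasi-likelihood test, adjusted p = 0.0346). The call held with DESeq2 and limma-voom and with the length and GC trend removed, and was lost in edgeR's test without sgControl replicate 2, sgControl replicate 3, sgMef2d replicate 1 or sgMef2d replicate 2, with adjusted p values between 0.0924 and 0.340. Of its 50-base words 19.9% are shared with 13 other genes, 5 of them pseudogenes, so that part of its counts may belong elsewhere. The other genes of the peripheral stalk, Atp5f1, Atp5j and Atp5o, had log2 fold changes of 0.01, 0.01 and 0.07.

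Atp5k, subunit e, which helps to pair the synthase into dimers, had the highest log2 fold change of all 77 genes, 0.39 with a standard error of 0.11. It was at 32.5, 41.9 and 30.8 CPM in sgControl and 46.0 and 45.9 CPM in sgMef2d. The sgMef2d libraries were alike and above all sgControl libraries, of which replicate 2 was the highest, and edgeR's adjusted p of 0.0571 was just outside the threshold. With the trend of length and GC content removed, Atp5k had a log2 fold change of 0.24 (edgeR's adjusted p = 0.182). It passed with DESeq2 (adjusted p = 0.0428), with limma-voom (adjusted p = 0.0494) and in edgeR's test without sgControl replicate 1 or without sgControl replicate 2, over a range of 0.000252 to 0.320 for all alternatives.

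The genes of the F1 head, Atp5a1 and Atp5b, had the highest levels per length of complex V by the length of all exons, while by the length of coding transcripts Atp5b stayed the highest and Atp5a1 did not stay next to it. Atp5b, the catalytic beta subunit, had 1296, 1135 and 1119 CPM in sgControl and 1263 and 1274 CPM in sgMef2d (log2 fold change 0.10), and Atp5a1 had a log2 fold change of -0.01. The 3 genes Atp5g1, Atp5g2 and Atp5g3 code for the same mature subunit c of the ring. Atp5g1 was at 105, 92.6 and 99.1 CPM in sgControl and 108 and 117 CPM in sgMef2d (0.18, standard error 0.070), and Atp5g3 at 252, 243 and 240 CPM in sgControl and 268 and 267 CPM in sgMef2d (0.13, standard error 0.055), both with the sgMef2d libraries above all sgControl libraries. Atp5g2 was at 155, 116 and 115 CPM in sgControl and 118 and 136 CPM in sgMef2d (-0.02, standard error 0.12), with overlapping groups and with 38.3% of its 50-base words shared with other genes. The differences between the 3 genes were not tested.

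Atp5s is taken in by its symbol but is not regarded as a subunit of the synthase. It was at 0.88, 1.21 and 0.95 CPM in sgControl and 0.65 and 0.81 CPM in sgMef2d, the only gene of the 77 with both sgMef2d libraries below all sgControl libraries, with a log2 fold change of -0.46 and a standard error of 0.38 (edgeR's adjusted p = 0.523). Its counts were few, and its standard error was the widest of all 77 genes.

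**Figure D2:**
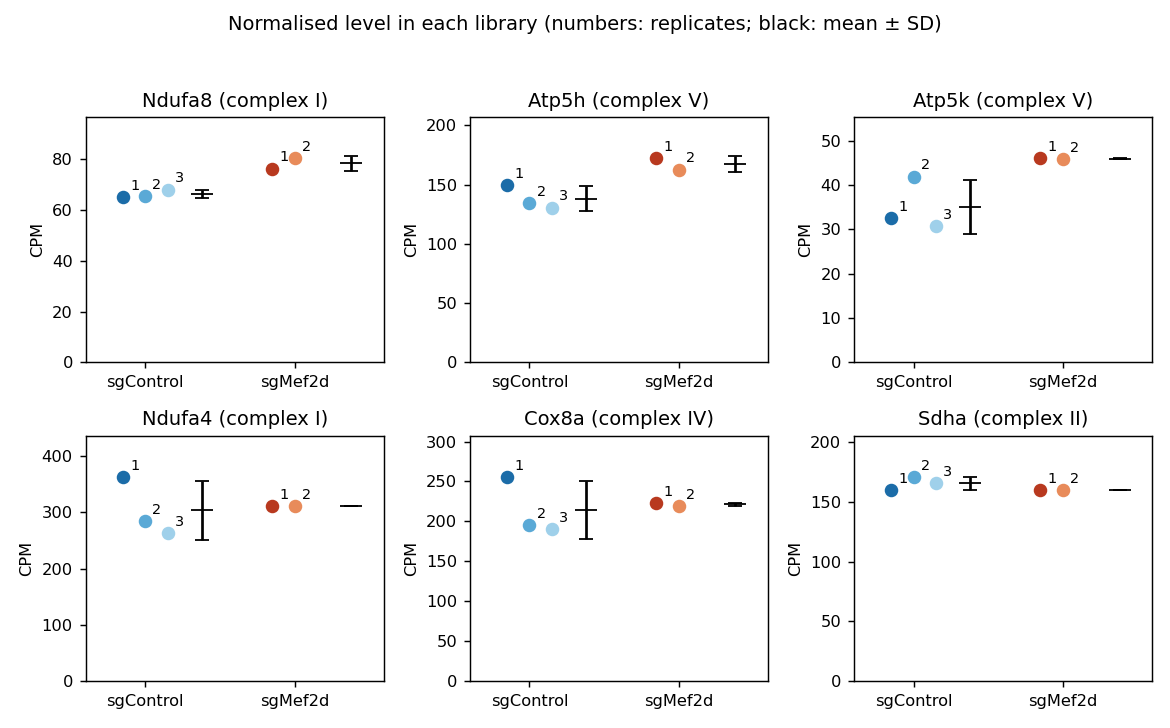
CPM of 6 genes in each library (coloured points, numbered by replicate), with the mean and SD of each group in black (n = 3 sgControl, n = 2 sgMef2d) and the axis from 0. In Ndufa8, Atp5h and Atp5k both sgMef2d libraries are above all sgControl libraries, while in Ndufa4 and Cox8a they lie between sgControl replicate 1 and sgControl replicates 2 and 3.

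The sgControl libraries differed from each other in these genes, with replicate 1 apart. Taking the mean of sgControl replicates 2 and 3 as the base, the median log2 CPM of sgControl replicate 1 was 0.18 higher in complex I, 0.18 in complex II, 0.29 in complex III, 0.27 in complex IV and 0.22 in complex V. Against the same base the median of the sgMef2d mean was 0.16, 0.05, 0.19, 0.19 and 0.15 higher. Over all 77 genes the values were 0.21 for sgControl replicate 1 and 0.16 for sgMef2d, beside -0.00014 and 0.0061 over all tested genes. In these genes sgControl replicate 1 was thus as far from the other sgControl libraries as the sgMef2d libraries were, or farther.

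Library by library, sgControl replicate 1 was the highest of the 5 libraries in 45 of the 77 genes (58.4%, beside 23.4% of all genes), and sgControl replicate 3 was the lowest in 53 (68.8%, beside 21.7%). The level of sgControl replicate 1 exceeded the mean of sgMef2d in 55 genes (71.4%, beside 51.0%). Together the 78 listed genes took 1.09%, 0.963% and 0.931% of the counts of sgControl replicates 1, 2 and 3 and 1.04% and 1.05% of those of sgMef2d replicates 1 and 2. The means were 0.994% ± 0.084 (SD, n = 3) and 1.04% ± 0.0056 (SD, n = 2), so the share of the sgMef2d libraries lay within the range of the sgControl libraries.

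**Figure D3:**
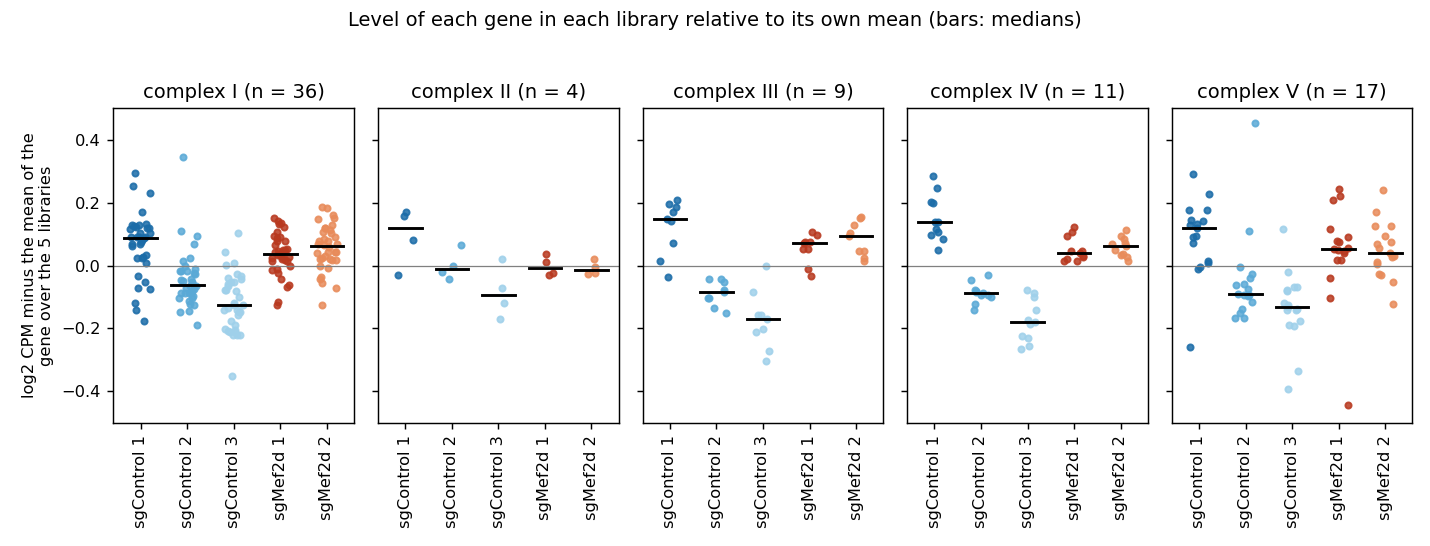
Log2 CPM of each tested gene in each library, minus the mean of that gene over the 5 libraries (points), by complex, with the median as a black bar. In all 5 complexes the bar of sgControl replicate 1 is the highest and that of sgControl replicate 3 the lowest, and the bars of the sgMef2d libraries lie between them.

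The number of calls rested on which sgControl libraries were used. Without sgControl replicate 1, 50 of the 77 genes passed the adjusted p of 0.05 in edgeR's test, all of them higher in sgMef2d, beside 29.4% of all genes (14.6% higher and 14.8% lower). None was lower, also at an unadjusted p below 0.05. By complex the 50 were 19 of 36 in complex I, 0 of 4 in complex II, 7 of 9 in complex III, 10 of 11 in complex IV and 14 of 17 in complex V. Both sgMef2d libraries then lay above both remaining sgControl libraries in 63 of the 77 genes, while 31.3% of all genes did so. The median log2 fold changes were 0.16, 0.05, 0.19, 0.19 and 0.16 for complexes I to V. Other tested genes with exons of 231 to 2413 bases had a median of 0.11 in this comparison, in which the trend with length was not removed. The median level of the 77 genes was 100 CPM, beside 30.9 CPM for all genes. The share of all genes is thus not that of genes of like length and level.

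In that comparison the core of complex I and the genes of complex II had the lowest medians among the subunit groups. Of the 7 core genes 2 passed, with a median of 0.05, and of the 28 accessory genes 16 passed, with a median of 0.16. The 5 small subunits of complex III all passed, with a median of 0.25, as did the 3 genes of the c ring, the 3 genes of the F1 stalk and the 4 small membrane subunits of complex V. Single genes with the highest values were Atp5h at 0.34 (edgeR's adjusted p = 5.98e-10), Atp5k at 0.33 (0.000252), Uqcr10 at 0.33 (2.5e-06) and Ndufb7 at 0.32 (1.85e-06).

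Leaving out the other libraries had the opposite effect on the calls. Without sgControl replicate 2, 1 of the 77 genes passed, Atp5k, beside 4.84% of all genes. Without sgControl replicate 3 the count was 0 (6.51% of all genes), and without sgMef2d replicate 1 or 2 it was 0 in each case (1.88% and 1.83% of all genes), with 7, 7 and 4 genes at an unadjusted p below 0.05. DESeq2 called 2 genes, Atp5h and Atp5k, beside 6.13% of all genes, and limma-voom 3, Atp5h, Atp5k and Ndufa8, beside 7.55%. With the replicate number as a block edgeR's test called those 3 genes too, beside 10.0% of all genes, and with the trend of length and GC content removed it called Atp5h alone, beside 11.3%.

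**Figure D4:**
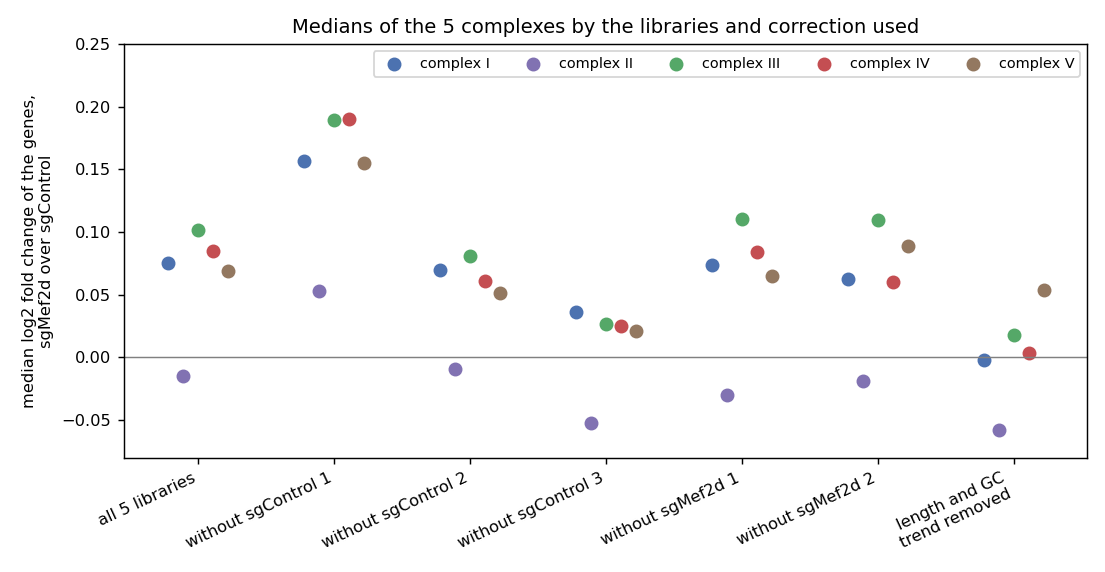
Median log2 fold change of the tested genes of each complex (points), sgMef2d over sgControl, with all 5 libraries, without each library in turn and with the trend of gene length and GC content removed. Without sgControl replicate 1 the medians are at their highest, between 0.05 for complex II and 0.19 for complexes III and IV, and without sgControl replicate 3 complexes I, III, IV and V are between 0.02 and 0.04; complex I is at -0.0023 with the trend removed.

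The respiratory chain genes are short, and the levels of short genes differed between the libraries as a whole. The median length of the exons of the 77 genes was 1718 bases, beside 4356 bases for all tested genes. When the other tested genes were divided into quintiles by exon length, the shortest quintile (231 to 2413 bases) had a median log2 CPM 0.13 higher in sgControl replicate 1 and 0.11 higher in sgMef2d than the mean of sgControl replicates 2 and 3. The longest quintile (7559 bases and more) was lower by 0.10 in sgControl replicate 1 and by 0.11 in sgMef2d on the same scale. Between these, the medians fell from each quintile to the next. Of the 77 genes, 56 had a length within the range of the shortest quintile, and their shifts of 0.21 and 0.16 over all 77 genes stand beside the 0.13 and 0.11 of that quintile.

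The log2 fold change with all 5 libraries followed the same order. It had a median of 0.06 in the shortest quintile, where 61.8% of genes were above 0, and of -0.07 in the longest, where 32.6% were above 0. With the trend removed, Atp5h remained past the threshold, 42 of the 77 genes were above 0, and the unadjusted p was below 0.05 for 6 genes that were higher and 2 that were lower. The part of gene length, fragment size or RNA quality in the differences between the libraries was not tested beyond this.

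**Figure D5:**
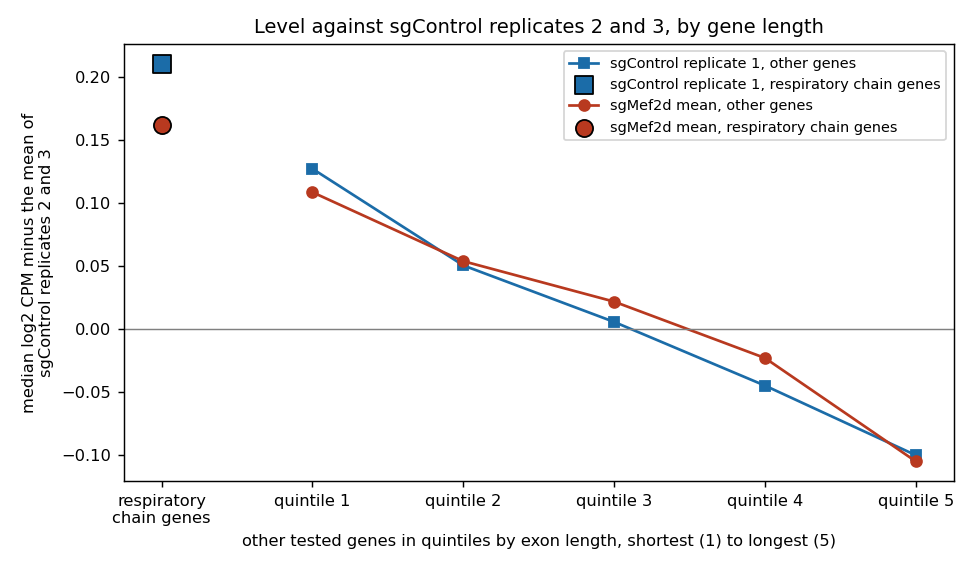
Median log2 CPM minus the mean of sgControl replicates 2 and 3, for sgControl replicate 1 (squares) and for the mean of the sgMef2d libraries (circles), in the 77 respiratory chain genes at the left and in the other tested genes in quintiles of exon length from shortest to longest. Both lines fall from about 0.13 and 0.11 in the shortest quintile to about -0.10 and -0.11 in the longest, and the respiratory chain genes are at 0.21 and 0.16.

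Levels can be compared between genes only per length, and here CPM were divided by the exon length of each gene and rescaled to the same sum in each library (the TPM scale, mean over 5 libraries). The median level was 135 TPM for complex I, 128 for complex II, 382 for complex III, 369 for complex IV and 256 for complex V, beside 22.6 for all tested genes. The highest of each complex were Ndufa4 (766 TPM), Sdhd (351 TPM), Uqcrh (506 TPM), Cox8a (1208 TPM) and Atp5b (992 TPM), and the lowest were Ndufs5 (18.4 TPM), Sdhb (114 TPM), Uqcrq (171 TPM), Cox6c (180 TPM) and Atp5s (1.53 TPM). The order depends on the length used. With the median length of the coding transcripts the highest were Ndufa4, Sdhc, Uqcrc1, Cox4i1 and Atp5b, so only complexes I and V kept the same leading gene. By that length the median levels were 131, 145, 272, 419 and 289 TPM for complexes I to V. Complex IV then had the highest median in place of complex III, and complex I the lowest in place of complex II. In 13 of the 77 genes over 10% of the 50-base words are shared with other genes, and in 35 none are; 27 overlap a gene on the other strand.

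Of the genes of related processes, read beside the 7.95% of all tested genes that passed and the 23.2% with an unadjusted p below 0.05, several lists held no call. Of 12 listed mitochondrially encoded subunits 0 passed edgeR's test, with 8 above 0 and a median log2 fold change of 0.09, while of the 6 with a mean over 1000 CPM 3 were above 0, with a median of -0.0057. With the trend of length and GC content removed 6 of the 12 were above 0, with a median of -0.0155, and without sgControl replicate 1 the median was 0.05. Among those with high counts, mt-Nd1 and mt-Co1 had log2 fold changes of -0.02 and -0.08 and mt-Cytb 0.10. The abundant mt-Nd5, a complex I subunit, was at 1814, 1892 and 1934 CPM in sgControl and 1720 and 1610 CPM in sgMef2d (-0.18, edgeR's adjusted p = 0.126). Both sgMef2d libraries lay below all sgControl libraries in that gene, and without sgControl replicate 1 it passed (-0.20, edgeR's adjusted p = 7.31e-07). In mt-Cytb, at 3016, 2943 and 2876 CPM in sgControl, both sgMef2d libraries lay above these, at 3170 and 3149 CPM, and it passed as higher without that library (0.12, edgeR's adjusted p = 0.0027). The one with the smallest p was mt-Co2 (0.48, edgeR's adjusted p = 0.122), which was at 10.1 ± 2.36 CPM (SD, n = 3) and 13.7 ± 0.059 CPM (SD, n = 2), with 100% of its 50-base words shared with pseudogenes in the nucleus. In mt-Nd3, mt-Nd4l, mt-Co3 and mt-Atp6, with group means of 0.87 to 8.81 CPM, 98.0% to 99.9% of the words are shared. In mt-Nd4 and mt-Co1 the shares are 62.2% and 51.1%. The medians over the 12 genes thus rest in part on genes whose counts may be split. The median of sgControl replicate 1 against replicates 2 and 3 was -0.15 in these 12 genes, but 0.09 in the 6 of them with a mean over 1000 CPM, of which 4 were above 0 as most nuclear genes were.

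Of 52 tested assembly factors, proteins that help to build the complexes, 2 were higher and 0 lower by edgeR's test, and 38 were above 0 (median 0.08). Coa3, needed to make and insert the first complex IV subunit, had 42.9, 42.5 and 37.1 CPM in sgControl and 50.1 and 52.5 CPM in sgMef2d (0.32, standard error 0.081, adjusted p = 0.0316). Ecsit, an assembly factor of complex I, had 24.5, 24.5 and 22.3 CPM in sgControl and 28.9 and 31.6 CPM in sgMef2d (0.34, standard error 0.087, adjusted p = 0.0352). Both genes had the sgMef2d libraries above all sgControl libraries and lost the call in 6 of the 13 alternatives, among them those without sgControl replicate 2 or 3 or either sgMef2d library, with adjusted p values up to 0.325 for Coa3 and 0.381 for Ecsit. Of 21 genes of mitochondrial import and porins 1 passed, the porin Vdac3, which fell by 0.21 on the log2 scale (adjusted p = 0.0486 by edgeR, up to 0.361 in the 8 of 13 alternatives in which the call was lost), although 19 of the 21 were above 0 with a median of 0.11.

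Of 19 genes of electron carriers and ubiquinone synthesis 0 passed (median 0.03, 12 above 0), the smallest p being that of Coq5 (0.19, edgeR's adjusted p = 0.138). Of 17 genes of pyruvate dehydrogenase and the citric acid cycle 0 passed (median 0.06, 10 above 0), and Ogdh was nearest (0.22, edgeR's adjusted p = 0.0650). Of 16 regulators of mitochondrial biogenesis 0 passed (median 0.05, 9 above 0). Polg2, a subunit of the mitochondrial DNA polymerase, had the smallest p of these (0.43, edgeR's adjusted p = 0.129), and Nrf1, Gabpa, Esrra and Yy1, whose factors bind motifs searched above, had log2 fold changes of 0.09, -0.08, 0.07 and -0.03. Ppargc1a, a coactivator of such factors, had -1.12, at 1.18 ± 0.46 CPM (SD, n = 3) in sgControl and 0.58 ± 0.41 CPM (SD, n = 2) in sgMef2d, with overlapping groups (edgeR's adjusted p = 0.216, and between 0.0403 and 0.762 over the alternatives). Of 17 tested glycolysis genes Pgam1 passed (0.22, edgeR's adjusted p = 0.0317, up to 0.365 in the 6 of 13 alternatives in which the call was lost), and 13 were above 0 with a median of 0.15. At an unadjusted p below 0.05 by edgeR, 7 of the 17 glycolysis genes were higher and 0 lower, beside 11.2% of all genes that were higher. Of the 52 assembly factors 11 were higher and 0 lower, and of the 21 import and porin genes 5 were higher and 1 lower. In the 4 lists without a call, DESeq2 and limma-voom also called 0 genes, and edgeR's unadjusted p was below 0.05 for 2 of 12 mitochondrially encoded subunits, 3 of 19 electron carrier and ubiquinone genes, 3 of 17 pyruvate dehydrogenase and citric acid cycle genes and 2 of 16 regulators. With the trend of length and GC content removed, 1 of the pyruvate dehydrogenase and citric acid cycle genes passed as higher.

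Without sgControl replicate 1, edgeR's test called 12 of 52 assembly factors, 13 of 21 import and porin genes and 11 of 17 glycolysis genes higher, beside 14.6% of all genes, and 0, 1 and 1 of them lower. It called 1 of 12 mitochondrially encoded subunits, 2 of 19 electron carrier and ubiquinone genes, 4 of 17 pyruvate dehydrogenase and citric acid cycle genes and 1 of 16 regulators higher, and lower only mt-Nd5 of the mitochondrially encoded subunits. With the trend removed the medians of the 6 other lists stayed above 0, between 0.04 for the regulators and 0.13 for glycolysis. In that fit edgeR's test called 4 of 17 glycolysis genes higher, beside 11.3% of all genes in either direction. It called 2 of 52 assembly factors and 2 of 21 import and porin genes higher, and 0 genes of any of these lists lower. On the scale of sgControl replicates 2 and 3, the assembly factors and the import and porin genes had medians of 0.16 and 0.14 in sgControl replicate 1 and of 0.16 and 0.17 in sgMef2d, while the glycolysis genes had -0.02 in sgControl replicate 1 and 0.15 in sgMef2d. The glycolysis genes of sgControl replicate 1 went both ways, with Gapdh at 2659 CPM beside 2235 and 2223 CPM in replicates 2 and 3 and Hk1 at 89.8 CPM beside 101 and 107 CPM, and 7 of the 17 were above that base.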

How the data were processed

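RNA-seq of 3 sgControl and 2 sgMef2d libraries of EpH4 cells was analysed. The authors selected poly(A) RNA, aligned strand-marked reads with STAR2 to GRCm38 and deposited whole-number counts for each gene, with no normalization. The submitters' processing notes name CASAVA, STAR and Subread, without versions. All 12934 identifiers matched GENCODE M21. Every listed gene reached at least 11 counts in a library, so low counts had been removed before deposit. Intervals and errors cover the spread between libraries as fitted, PCR copies were not marked, and genes near 3 counts (0.146 to 0.220 CPM) are limited by counting error.

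The deposited counts were scaled by TMM, filtered by group (12483 genes) and tested over all genes and libraries with edgeR 4.0.16 (R 4.3.3), by its quasi-likelihood test with bias adjustment, with no covariate, at an adjusted p of 0.05 (Benjamini-Hochberg). The biological coefficient of variation was 0.0607. Log2 CPM used a prior count of 2. Alternatives were other scalings, DESeq2 1.42.0, limma-voom (limma 3.58.1), the legacy test, no filter, a replicate block, leaving out each library, other thresholds, and removal of each library's loess trend with length and GC content (span 0.3). The scripts were tested on simulated data.

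The members and gene lists were chosen with earlier results of these data known, and the groups by role within a complex after the values were seen. The genes named are those past the threshold, the highest and lowest of each complex, the paired forms, the genes that are not subunits and the gene with the smallest p of each other list; the others given as examples were chosen after their values were seen. The replicate numbers 1 and 2 are shared by the groups, but the labels tie them to no culture, and over all genes the difference of replicates 1 and 2 in sgControl had a correlation of 0.007 with that in sgMef2d. Levels by the length of coding transcripts were added after seeing the data. Values of 1 gene of complex I are not reported here, and it stays in the counts and medians.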

Additional observations from a re-analysis of the deposited data

How the results depend on the processing

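The count of 2 genes past the threshold moved to between 0 and 50 when a library was left out, to 1 with the trend of length and GC content removed, to 5 at an adjusted p below 0.10 and to 9 at an unadjusted p below 0.05. The 66 genes above 0 moved to 42 with the trend removed. The medians of the 5 complexes moved by less than the SD of the median level of the complex over the sgControl libraries (0.13 to 0.18). That SD comes from the same libraries, with sgControl replicate 1 among them. A move below it was thus nearly fixed in advance when an sgControl library was left out, and does not show that the medians are stable. In several cases they moved by over 1.5 times: complex I went from 0.076 to 0.16 without sgControl replicate 1 and to -0.0023 with the trend removed, and complex IV from 0.085 to 0.19 and 0.0037. Of 546 comparisons for the 42 tested members named, 457 kept their direction and side of the threshold, 10 lost and 30 gained the threshold, and 49 changed sign. With a library left out, these genes of both signs ranged from -0.048 to 0.025 for Atp5a1, -0.057 to 0.11 for Atp5f1, -0.13 to 0.14 for Atp5g2, -0.031 to 0.093 for Atp5j, -0.011 to 0.16 for Atp5o, -0.069 to 0.20 for Cox7b, -0.031 to 0.20 for Cox8a, -0.063 to 0.18 for Ndufa4, -0.0076 to 0.071 for Sdhb, -0.11 to 0.034 for Sdhc, -0.057 to 0.11 for Sdhd, -0.016 to 0.11 for Uqcrc1, -0.074 to 0.10 for Uqcrc2 and -0.023 to 0.16 for Uqcrh, the highest value of each but Uqcrc1 being that without sgControl replicate 1. With the trend removed, the sign changed for Atp5j (-0.0074), Cox4i1 (-0.025), Cox6a1 (-0.047), Cox7b (-0.033), Cox8a (-0.098), Ndufa4 (-0.019), Ndufs1 (0.028), Ndufv1 (-0.017), Sdhb (-0.040), Sdhd (-0.065), Uqcrc2 (-0.0033) and Uqcrh (-0.035). With the replicate block, in which sgControl replicate 3 has no partner and adds nothing to the difference, it changed for Atp5f1 (-0.049), Atp5j (-0.015), Cox7b (-0.055), Cox8a (-0.018), Ndufa4 (-0.052), Sdhb (-0.0058), Sdhd (-0.054), Uqcrc2 (-0.069) and Uqcrh (-0.015), 52 genes were above 0, and 3 genes passed, both genes of the unblocked fit among them; since the samples share only a number, this is not read as a paired result. Uqcrc2, at 5.27e-06, was also below 0 with RLE factors (-0.00090), the legacy test (-0.00038) and no filter (-0.0017). The cause of these moves was not tested. Depth limits Atp5s and Cox7b2 most.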
